A study of Mus musculus with 82 samples.

Results

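Sdc1, Slamf7 and Jchain are 3 of the 12394 genes named on the array. They were taken as every probe set annotated to one of these symbols, which gave 6 of 22690 probe sets: 4 for Sdc1, 1 for Slamf7 and 1 for Jchain, whose older symbol is Igj. Sdc1 (syndecan-1, CD138) is a transmembrane heparan sulfate proteoglycan that plasma cells carry at their surface, where it binds growth factors and survival factors; it is also made by epithelia. Slamf7 (CD319, CS1) is a receptor of the SLAM family that binds itself on neighbouring cells and is used as a surface marker of plasma cells and plasma cell tumours, although NK cells and some macrophages carry it too. Jchain encodes the joining chain, a small secreted protein that links immunoglobulin units into IgM pentamers and IgA dimers and lets the polymeric immunoglobulin receptor carry them across epithelia.

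The mice were of the strain BALB/c.iMycEμ, which carries a Myc gene inserted beside an enhancer of the immunoglobulin heavy chain locus, were at least 8 weeks old and received 0.5 ml of pristane oil into the peritoneal cavity. Pristane induces oil granulomas in which plasma cell tumours arise. Cells that stained with methyl green pyronin were cut out of granuloma sections by laser, and RNA from these captured cells and from whole, undissected granuloma was amplified in 2 rounds and hybridised. All groups carried the Myc insertion and received pristane, so no comparison below sets either against its absence, and the stain marks RNA-rich cytoplasm rather than a surface protein. The 82 arrays come from 2 cohorts, called study 1 and study 2. Study 2 has 30 captured and 15 whole granuloma arrays at days 7, 17, 33, 49 and 105, with 3 specimens in each tissue and day. Study 1 has 25 captured arrays at days 7, 17, 33, 46 and 104 and 12 whole granuloma arrays at days 7, 17, 33 and 104, with 1 specimen at day 104. Arrays with the same specimen code and tissue were averaged, which left 53 averages from 33 codes, 15 codes of study 2 and 5 of study 1 having both tissues. The labels do not say that each code is a separate mouse, so the p-values measure the spread between codes.

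Captured and whole granuloma arrays differed in more than the cells they sampled. As deposited, the median log2 value of a study 2 array was 5.31 to 5.64 for captured cells but 7.11 to 7.33 for whole granuloma, so values were quantile-normalized before the tissues were compared and were used as deposited to compare days. The difference between 3′ and 5′ control probe sets for actin and Gapdh, which grows with shortened RNA, was 4.14 ± 0.90 (SD, n = 30 arrays) in captured cells and 1.61 ± 0.13 (SD, n = 15 arrays) in whole granuloma of study 2, and 4.49 ± 0.68 (SD, n = 25) and 3.19 ± 0.36 (SD, n = 12) in study 1. One captured array of study 2, day 49 specimen 2, stood apart: its median rank correlation with the other arrays was 0.265, against 0.871 for the next lowest captured array of that study. Its Jchain signal as deposited was 6.63, against 13.03 on the other array of the same specimen. On its Gapdh and actin 3′ control probe sets that array read 5.62 and 5.83, and every other array read at least 10.72 and 11.34. Its 3′ and 5′ difference was 0.46. The other captured arrays of study 2 ran from 3.10 to 5.31, and whole granuloma arrays of that study from 1.39 to 1.84. The array was kept, and values without it are given beside many of the results it moves. Tissue comparisons on deposited values, median-centred values or ranks, or with a 3′ and 5′ covariate, all keep it.

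RefSeq (GRCm38.p6) places Sdc1 at chr12:8771396-8793716, Slamf7 at chr1:171632403-171653037 and Jchain at chr5:88519809-88527897. The 250 bases before the start that RefSeq's promoter table gives for each gene are shown because the 3 genes are read together as plasma cell markers and yet have unlike promoters. They run 5′ to 3′ on the gene's strand, with each match to the E-box CANNTG in capitals. The Slamf7 start used lies inside the gene's span rather than at its end.
Sdc1, chr12:8771146-8771395, plus strand: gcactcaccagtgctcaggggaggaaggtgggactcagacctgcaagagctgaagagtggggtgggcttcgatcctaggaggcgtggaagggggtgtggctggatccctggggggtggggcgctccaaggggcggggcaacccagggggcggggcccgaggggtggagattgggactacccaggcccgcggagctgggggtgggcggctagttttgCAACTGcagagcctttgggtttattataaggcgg
Slamf7, chr1:171649000-171649249, minus strand: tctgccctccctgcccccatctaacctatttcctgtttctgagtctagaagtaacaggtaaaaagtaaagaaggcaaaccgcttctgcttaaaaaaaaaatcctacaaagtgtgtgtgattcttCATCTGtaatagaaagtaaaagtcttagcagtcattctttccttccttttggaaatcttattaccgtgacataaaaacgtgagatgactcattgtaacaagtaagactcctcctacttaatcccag
Jchain, chr5:88527898-88528147, minus strand: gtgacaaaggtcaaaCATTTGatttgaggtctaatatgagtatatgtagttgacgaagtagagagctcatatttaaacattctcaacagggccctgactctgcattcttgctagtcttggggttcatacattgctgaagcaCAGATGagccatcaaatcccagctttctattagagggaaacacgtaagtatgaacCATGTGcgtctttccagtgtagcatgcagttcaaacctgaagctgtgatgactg
G and C made up 66% of the Sdc1 promoter, 38% of that of Slamf7 and 42% of that of Jchain, against a median of 52.4% over 32851 promoters of this length. On both strands, the GC box GGGCGG matched 3 times in Sdc1 and in neither other gene, and 32.7% of all promoters hold it. CANNTG matched 1 time in Sdc1, 1 time in Slamf7 and 3 times in Jchain, and 66.2% of all promoters hold it. TGANTCA, the AP-1 motif, matched 1 time, in Slamf7, and 6.75% of all promoters hold it, while the core of the interferon-stimulated response element matched none of the 3 and is held by 2.98%. No match overlapped another motif, and the arrays do not measure binding at any of them.

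On quantile-normalized values, Slamf7 was higher in captured cells than in the granuloma of the same specimen in every pair of both studies, although the ranges of the tissues overlapped. The 15 captured averages of study 2 ran from 7.05 through a median of 7.77 to 8.78, and the 15 whole granuloma averages from 5.73 through 6.15 to 7.90. Captured cells were above every whole granuloma average in 7 of 15 specimens and above their median in all 15. The difference was 1.46 (SE 0.14), a fold of 2.75, with an adjusted p of 1.58e-11 by limma with Benjamini-Hochberg adjustment over 14286 probe sets, and captured cells were higher than the granuloma of the same specimen in 15 of 15 pairs.

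Slamf7 was also higher in captured cells of study 1. Its 15 captured averages ran from 6.85 through 8.12 to 8.55 and its 8 whole granuloma averages from 5.83 through 6.46 to 7.25. Captured cells exceeded every whole granuloma average in 14 of 15 specimens. The difference was 1.48 (SE 0.21, limma adjusted p = 1.07e-07), in 5 of 5 pairs. Over the days the studies have in common, their tissue differences differed by 0.03 (95% interval -0.50 to 0.56, limma adjusted p = 0.936), which did not pass the test. NK cells carry Slamf7 too. Of 7 T and NK cell genes tested, 2 were called higher in captured cells and 5 were not called in each study. Those higher were Zap70 and Gzmb in study 2 (0.73 and 0.94) and Zap70 and Cd3e in study 1 (1.02 and 0.38). The list medians were 0.10 in both studies, and of all probe sets 34.6% and 32.2% were called higher in studies 2 and 1. The part of NK cells in the Slamf7 difference was not tested. In bulk samples such as these, fewer cells of a type and less RNA per cell cannot be told apart.

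**Figure D1:**
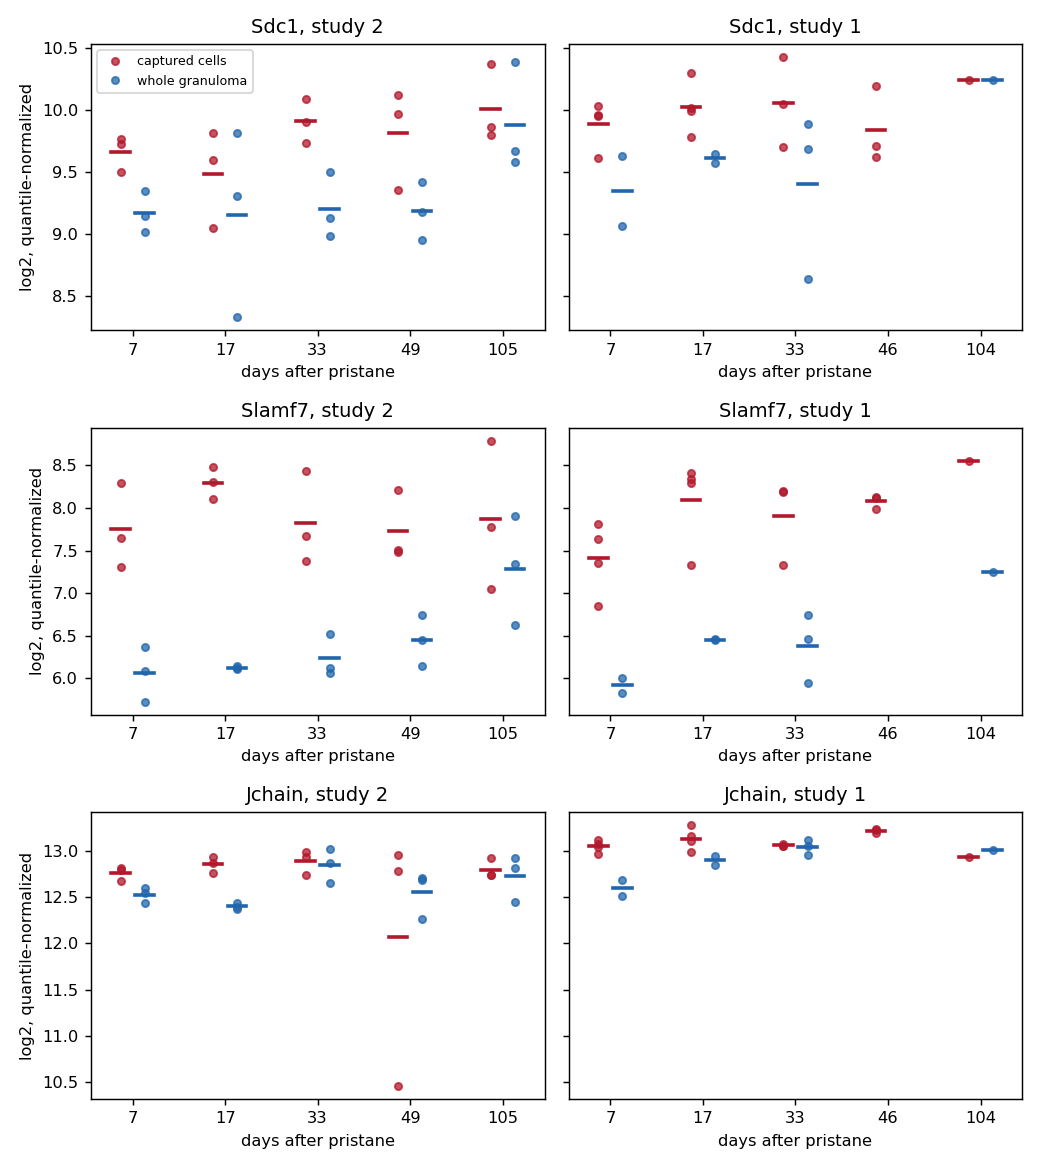
Quantile-normalized log2 values (vertical axis) of the lead probe set of each gene by days after pristane (horizontal axis), 1 point per specimen and tissue, with bars at the group means. Slamf7 of captured cells lies above whole granuloma on days 7 to 49 of study 2, while Jchain lies between 12.26 and 13.27 in both tissues apart from the day 49 specimen at 10.46.

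Many probe sets differed between the tissues, so a called difference is a common event here. In study 2, 70.5% of the 14286 probe sets were called, 34.6% as higher in captured cells, and in study 1 61.5% were called, 32.2% as higher. Of the 5 member probe sets tested, 2 were called in study 2 and 2 in study 1, all as higher. The lead probe sets of all 3 genes, those with the highest mean over all arrays, gave 2 calls in study 2 and 1 in study 1. Between the studies 47% of probe sets differed in their tissue difference, and none of the 5 did.

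The direction in study 2 depended on scaling for every gene. On values as deposited, where the median probe set was 1.69 lower in captured cells, Slamf7 differed by -0.31 (limma adjusted p = 0.0514). Relative to the array's own ranking it lay at a median percentile of 78.8 on captured arrays and 56.0 on whole granuloma arrays of study 2, and at 79.1 and 60.0 in study 1. Centring each array on its median gave Slamf7 differences of 1.57 and 1.42 in studies 2 and 1. With the 3′ and 5′ difference as a covariate they were 1.09 (limma adjusted p = 0.0311) and 1.28 (limma adjusted p = 0.00036). The tissues of study 2 share no values of this covariate, so that fit cannot separate RNA quality from tissue there and 1.09 is uncertain.

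By day in study 2, the Slamf7 difference was 1.69 at day 7, 2.17 at day 17, 1.59 at day 33, 1.28 at day 49 and 0.58 at day 105. The first 4 passed the test (limma adjusted p of 6.61e-05, 1.6e-06, 0.000123 and 0.00167) and day 105 did not (limma adjusted p = 0.179). At day 105 the captured averages of 8.78, 7.05 and 7.77 overlapped the granuloma averages of 7.90, 6.62 and 7.34, while on each earlier day the tissues did not overlap. The change of the tissue difference over days was not called (F test over days, limma adjusted p = 0.127), where 4.4% of probe sets were called. In study 1 the differences were 1.49, 1.59, 1.52 and 1.30 at days 7, 17, 33 and 104, and no probe set was called for such a change (0% of 14286, with 518 at an unadjusted p under 0.05).

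**Figure D2:**
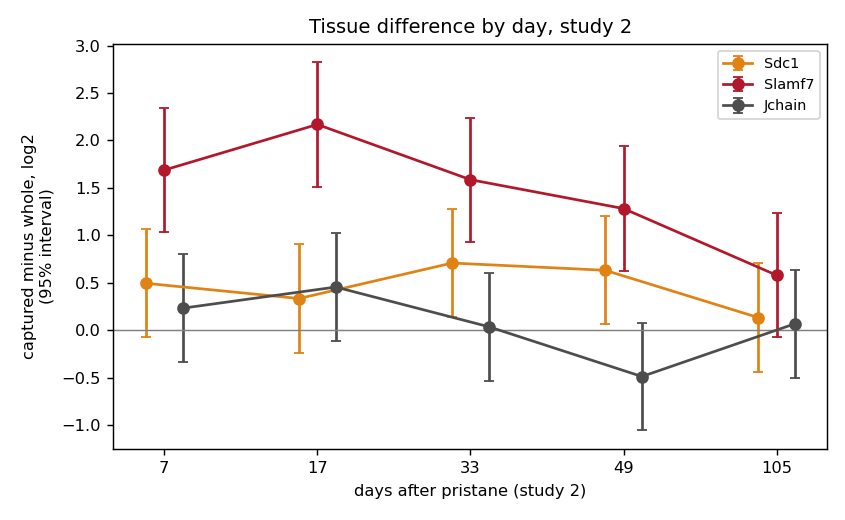
Captured minus whole granuloma on the log2 scale (vertical axis) by day in study 2 (horizontal axis) for the lead probe sets, with 95% intervals from the limma fit. The Slamf7 difference is 2.17 at day 17 and 0.58 at day 105, while Jchain lies between -0.49, at day 49 with the array that stood apart, and 0.46.

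Slamf7 rose with time in the whole granuloma of study 2. As deposited, Slamf7 in whole granuloma of study 2 was 7.37, 7.75 and 7.94 at day 7 and 9.42, 8.09 and 8.73 at day 105, with no overlap. Day 105 was higher by 1.06 (SE 0.36, limma adjusted p = 0.0351), a fold of 2.08. In captured cells the same change was 0.16 (SE 0.36, 95% interval -0.57 to 0.89, limma adjusted p = 0.871), from 7.05, 8.05 and 7.43 to 8.69, 6.76 and 7.57. The rise in granuloma was called in 11 of 15 fits that left out 1 specimen. It was 0.90 (limma adjusted p = 0.147) without day 7 specimen 1, 1.09 (limma adjusted p = 0.0781) without day 7 specimen 2, 0.72 (limma adjusted p = 0.143) without day 105 specimen 1 and 1.07 (limma adjusted p = 0.0975) without day 105 specimen 3.

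Markers of other cells moved in the same granuloma comparison. All 9 smooth muscle genes tested fell from day 7 to day 105, with a median of -3.93, and 5 of 7 adipocyte genes fell, with a median of -2.94, beside a median of 0.01 over all probe sets tested. Of 7 T and NK cell genes 1 rose, Gzmb (granzyme B), by 1.05, and of 15 macrophage genes 1 rose and 2 fell. Of 17 other plasma cell genes 7 rose and 0 fell. Among all probe sets 17.9% were called in this comparison, 6.81% as higher. The part of any of these cell types in the Slamf7 rise was not tested.

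The Sdc1 probe sets did not give 1 answer. Its lead probe set, 1437279_x_at (the suffix marks probes that can also match other transcripts), ran in study 2 from 9.04 through 9.80 to 10.37 in captured cells and from 8.32 through 9.31 to 10.39 in whole granuloma. The ranges overlapped, and no captured average lay above every granuloma average. The difference was 0.46 (SE 0.13, limma adjusted p = 0.00144), with captured cells higher in 11 of 15 pairs, and without the array that stood apart it was 0.47, in 12 of 15 pairs. In study 1 it was 0.40 (SE 0.18, limma adjusted p = 0.0525), higher in 4 of 5 pairs, and 0.40 (SE 0.17, limma adjusted p = 0.0392) without the array that stood apart. That array is of study 2, so it bears on the study 1 test through the spread shared by all groups, not through the values compared. Leaving out 1 study 1 specimen brought a call in 5 of 18 fits: 0.46 without code 3 of day 7, 0.42 without code 5 of day 7, 0.44 without code 5 of day 33, 0.45 without code 16 of day 33 and 0.53 without the day 104 specimen (limma adjusted p of 0.0409, 0.0445, 0.0467, 0.0278 and 0.00823). With the 3′ and 5′ difference as a covariate, the study 2 value was 0.03 (limma adjusted p = 0.957). It is uncertain, as the tissues of study 2 share no values of the covariate.

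Probe set 1415943_at differed by -0.09 (95% interval -0.43 to 0.25) in study 2 and -0.07 (95% interval -0.55 to 0.40) in study 1, with captured cells higher in 6 of 15 and 3 of 5 pairs. Probe set 1415944_at differed by 0.20 (95% interval -0.08 to 0.48) in study 2, without a call, and by 0.61 (SE 0.20, limma adjusted p = 0.00731) in study 1. With specimen as a fixed block the study 1 value was 0.41 and no longer called (limma adjusted p = 0.2). The fourth probe set, 1448158_at, was dim, between 3.59 and 6.95 as deposited, and did not pass the filter on low values. Its captured value was the higher one in 14 of 15 pairs of study 2 and 4 of 5 of study 1. With no filter it differed by 0.63 (limma adjusted p = 4.14e-08) in study 2 and 0.32 (limma adjusted p = 0.0224) in study 1, on quantile-normalized values. As deposited the captured mean was the lower one, at 5.14 against 6.25 in granuloma of study 2 and 4.04 against 4.13 in study 1. Levels of different probe sets are not compared with one another.

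**Figure D3:**
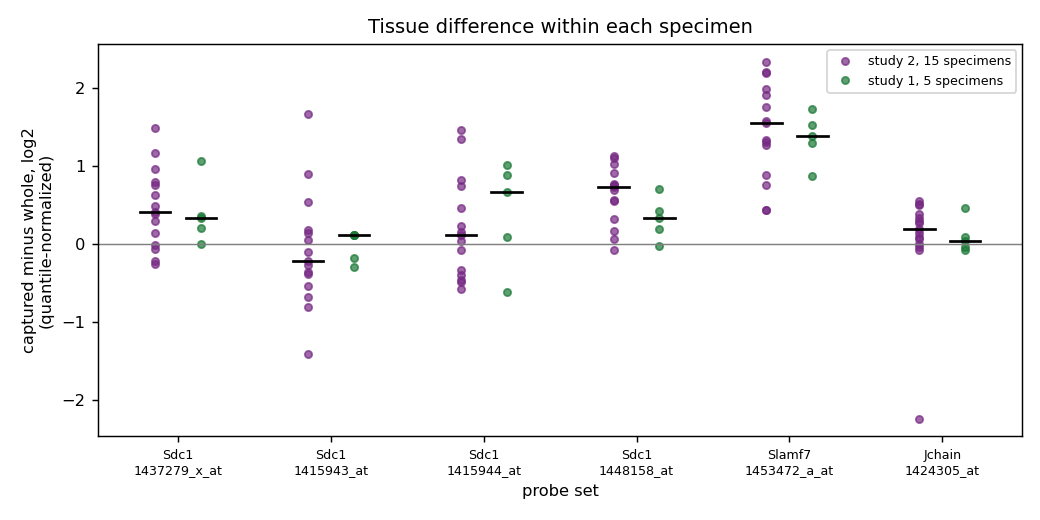
Captured minus whole granuloma within each specimen that has both tissues, log2 of quantile-normalized values (vertical axis), for the 6 probe sets (horizontal axis), with bars at the medians. All 20 Slamf7 points are above 0, those of the Sdc1 probe sets fall on both sides, and 1 Jchain point lies at -2.24, which is 0.25 without the array that stood apart.

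Sdc1 also rose in whole granuloma with time, by probe set. As deposited, 1415944_at in study 2 granuloma had a mean of 9.15 ± 0.26 (SD, n = 3) at day 7 and 10.31 ± 0.33 (SD, n = 3) at day 105, with ranges of 8.85 to 9.36 and 10.04 to 10.67 that did not overlap. The increase was 1.16 (SE 0.34, limma adjusted p = 0.0145), and without day 7 specimen 1 it was 1.01 (limma adjusted p = 0.083) and without day 105 specimen 1 it was 0.98 (limma adjusted p = 0.0565). Of the other probe sets tested, 1415943_at differed by 1.13 (limma adjusted p = 0.0599) and 1437279_x_at by 0.59 (limma adjusted p = 0.249), neither called. The dim 1448158_at was 5.93, 5.89 and 6.18 at day 7 and 6.95, 6.92 and 6.68 at day 105, with no overlap, and fitted with no filter it rose by 0.85 (SE 0.18, limma adjusted p = 0.00102). With no filter, its F test over the 5 days had a limma adjusted p of 0.000935. In captured cells the differences were 1.21 (1415943_at, limma adjusted p = 0.0761), 0.53 (1415944_at) and 0.51 (1437279_x_at), and none was called. Without the array that stood apart, 1415943_at was called in both tissues, at 1.21 in captured cells (limma adjusted p = 0.0403) and 1.13 in granuloma (limma adjusted p = 0.0332). That array is of day 49, so the values stayed the same while the SE, from the spread shared by all groups, went from 0.43 to 0.39. The smooth muscle and adipocyte genes given above fell in this comparison too. Of 9 mesothelial and epithelial genes tested, 5 fell and 1 rose in it, with a median of -1.45, the riser being Epcam, an epithelial adhesion molecule (1.53). The part of these cells in the Sdc1 rise was not tested.

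Of the 5 member probe sets tested, 2 rose in granuloma from day 7 to day 105, where 17.9% of probe sets were called and 6.81% rose. None was called in captured cells, where 7.14% were. The F test over all 5 days called 1415944_at in granuloma of study 2 (limma adjusted p = 0.0406), 1 of 5 where 23.1% were called, and in 7 of 15 fits that left out 1 specimen. It called none in captured cells of study 2, where 14.4% were called. In study 1 no member was called over days in captured cells, where 0.707% of probe sets were, or in granuloma, where 0.021% were. From day 7 to day 104, with 1 specimen at day 104, Slamf7 differed by 1.15 (SE 0.49, limma adjusted p = 0.389) in captured cells, where 0.798% of probe sets were called, and by 1.29 (SE 0.54, limma adjusted p = 1) in granuloma, where 0% were called (389 at an unadjusted p under 0.05).

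Jchain was among the brightest probe sets in both tissues. Its median percentile within an array was 99.4 on captured and 99.3 on whole granuloma arrays of study 2, and 99.6 and 99.5 in study 1. In study 2 the quantile-normalized captured averages ran from 10.46 through 12.79 to 12.99 and the granuloma averages from 12.26 through 12.60 to 13.02. The ranges overlapped, and the lowest captured average is the specimen that holds the array that stood apart.

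The Jchain difference was 0.06 (SE 0.13, 95% interval -0.19 to 0.32, limma adjusted p = 0.669) in study 2, positive in 11 of 15 pairs. Without the array that stood apart it was 0.23 (SE 0.05, limma adjusted p = 0.000244), a fold of 1.17, in 12 of 15 pairs. In study 1 it was 0.15 (95% interval -0.21 to 0.51, limma adjusted p = 0.466) in 3 of 5 pairs. Scaling turned its direction in study 2: it was -0.69 (limma adjusted p = 0.000128) on values as deposited and 1.19 (limma adjusted p = 5.84e-08) with each array centred on its median, and with the 3′ and 5′ difference as a covariate it was -1.03 (limma adjusted p = 0.00827). All of these fits kept the array that stood apart. The 2 tissues of study 2 share no values of the covariate, so the adjusted value is uncertain. That array lies at 0.46, below the whole granuloma arrays (1.39 to 1.84), and the other captured arrays lie at 3.10 or above. At day 49, where the array that stood apart lies, the 3 pairs of captured and granuloma Jchain values differed by 0.51, -2.24 and 0.27 with the array and by 0.51, 0.25 and 0.27 without it. Over days Jchain was not called in either tissue, and day 105 minus day 7 was 0.12 (SE 0.38) in captured cells and 0.04 (SE 0.38) in granuloma of study 2.

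The spread between the 2 captured arrays of a specimen limits these values. For Slamf7 in study 2 the absolute difference between them had a median of 0.30 over 15 specimens and reached 2.41, at day 7 specimen 1, whose arrays read 6.10 and 8.52. For the Sdc1 lead probe set the median was 0.21, reaching 1.17, and for Jchain 0.21, reaching 4.99 with the array that stood apart and 0.52 without it.

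Other genes of plasma cells were called higher at about the rate of all probe sets, which was 34.6% in study 2 and 32.2% in study 1. Of 17 tested, 6 were higher and 2 lower in captured cells of study 2 and 6 higher and 1 lower in study 1. With each array centred on its median 11 and 9 were higher, where 6500 and 5323 of all 14286 probe sets were. On values as deposited 14 and 5 were lower, where 13653 and 8459 of all probe sets were. On quantile-normalized values the medians were 0.06 and 0.18, beside -0.02 and 0.06 over all probe sets tested. Without the array that stood apart 9 were higher in study 2, and 75.1% of all probe sets were called, against 70.5% with it. Eaf2, a partner of transcription elongation factors, was higher by 2.19 and 1.21 in studies 2 and 1, Cxcr4, the receptor that draws plasma cells to CXCL12, by 1.36 and 1.46, and Tnfrsf17 (BCMA), a survival receptor, by 1.34 and 0.85. Itga4, an integrin subunit, was higher by 0.80 in study 2 and stood at 0.18 without a call in study 1. Cd93 was lower by -1.92 in study 1 and stood at -0.37 without a call in study 2. From day 7 to day 105, 7 of the 17 rose in granuloma and 0 fell by limma, with a median of 0.81 beside 0.01 over all probe sets tested. Without the array that stood apart 10 rose, and 22.8% of all probe sets were called, against 17.9% with it. Tnfrsf13b (TACI), another survival receptor, rose by 2.75, Prdm1, a regulator of plasma cell differentiation, by 2.10, Edem1, which helps clear misfolded proteins, by 1.78 and Irf4, another regulator of plasma cells, by 1.56. In captured cells 2 rose and 1 fell, where 7.14% of all probe sets were called. Without that array 5 rose and 1 fell, where 11.3% were called.

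The relatives of Slamf7 went both ways, as did all probe sets, of which 4939 were called higher and 5127 lower in study 2 and 4599 and 4183 in study 1. Of 9 SLAM family receptors and adaptors tested, 4 were higher and 4 lower in captured cells in study 2. In study 1, 1 was higher and 3 were lower. On values as deposited 9 and 7 were lower and none higher, where 13653 and 8459 of all 14286 probe sets were lower. Ly9 (CD229), another self-binding receptor, was higher by 1.21 and 0.72. Cd84 and Cd48 were higher in study 2, by 1.45 and 0.64, and stood at -0.36 and -0.54 without a call in study 1. Inpp5d (SHIP1), a phosphatase that SLAM receptors can recruit, was lower by -1.27 and -0.54, and Slamf8, a receptor of myeloid cells, by -0.71 and -1.23. Slamf9 was higher by 1.06 in study 2, stood at 0.09 without a call in study 1, and rose from day 7 to day 105 by 2.54 in captured cells and 1.87 in granuloma.

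Of 20 syndecan, glypican and heparan sulfate synthesis genes tested, 5 were higher and 11 lower in captured cells in study 2, and 5 and 9 in study 1. On values as deposited 20 and 14 were lower and 0 and 1 higher. Of all probe sets, 13653 and 8459 were then lower and 99 and 1229 higher. Of all 14286 probe sets, quantile-normalized, 4939 were higher and 5127 lower in study 2, and 4599 and 4183 in study 1. Of the other syndecans, Sdc4 was lower by -0.63 and -1.64, Sdc3 by -1.56 in study 2 while it was at 0.28 without a call in study 1, and Sdc2 was lower by -1.93 in study 1 and at 0.03 in study 2. B4galt7, which builds the linker that anchors the sugar chain to the protein, was higher by 1.42 and 1.55.

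Of 6 tested partners of J chain, 5 were lower and 0 higher in captured cells of study 2 and 2 lower and 0 higher in study 1 by limma. Of all 14286 probe sets, 5127 were lower and 4939 higher in study 2, and 4183 and 4599 in study 1. Without the array that stood apart 3 were lower in study 2. Median centring of the arrays gave 1 higher and 2 lower in study 2, where it called 6500 of all probe sets higher and 4062 lower. Ighm, the heavy chain of IgM, was lower by -0.99 and -1.75, and Igha, the heavy chain of IgA, by -1.0 in study 2 while it was at -0.06 in study 1. From day 7 to day 105 Ighm fell by 6.50 and Igha rose by 5.34 in captured cells, in which Jchain changed by 0.12 without a call. In granuloma Ighm fell by 3.92 and Igha stood at 1.84 without a call. Immunoglobulin probe sets can match several related transcripts, so these values are uncertain.

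Markers of smooth muscle, adipocytes, mesothelium and epithelium, and macrophages were mostly lower in captured cells, but not every list was. The 7 B cell genes gave 1 higher and 4 lower in study 2, and 1 higher and 1 lower in study 1. Among 7 T and NK cell genes, 2 were higher and 0 lower in each study. The 2 dendritic cell genes gave 1 higher and 1 lower in study 2, and 0 higher and 1 lower in study 1. By comparison, 5127 of all probe sets tested were lower and 4939 higher in study 2, and 4183 and 4599 in study 1. All 9 smooth muscle genes and all 7 adipocyte genes tested were lower in both studies, with medians of -3.62 and -4.09 for smooth muscle and -2.03 and -2.70 for adipocytes. Of 9 mesothelial and epithelial genes 7 were lower and 1 higher in study 2 and 6 lower and 2 higher in study 1. Of 15 macrophage genes 11 were lower and 1 higher in study 2 and 12 lower in study 1 (7 lower and 3 higher, and 11 lower, after median centring). Median centring called 4062 of all probe sets lower and 6500 higher in study 2, and 3835 and 5323 in study 1. Averaged over the macrophage genes, levels were 8.22 to 10.69 in captured cells against 9.29 to 11.19 in granuloma of study 2, so macrophage transcripts were also measured in captured cells. The share of these cells in the differences of Sdc1, Slamf7 and Jchain was not tested.

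**Figure D4:**
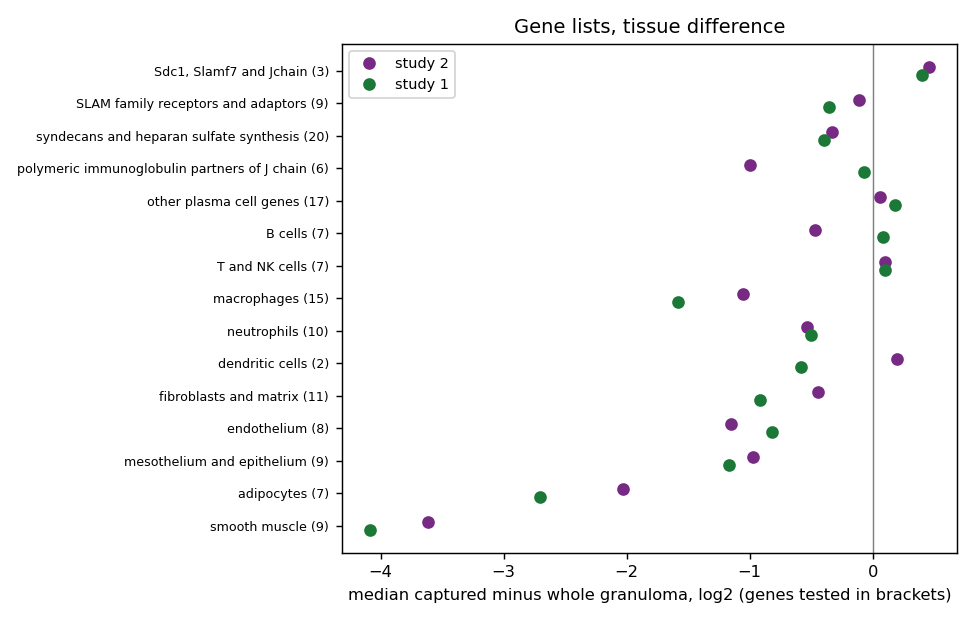
Median captured minus whole granuloma difference, log2 of quantile-normalized values (horizontal axis), of each gene list (vertical axis, genes tested in brackets) in the 2 studies. Smooth muscle stands at -3.62 and -4.09, while Sdc1, Slamf7 and Jchain have medians of 0.46 and 0.40.

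Across the 30 captured averages, with the mean of each study removed, the 3 genes followed one another loosely. As a description, Pearson's r was 0.34 between the Sdc1 lead probe set and Slamf7, 0.25 between Slamf7 and Jchain and 0.32 between Sdc1 and Jchain, and 0.34, 0.40 and 0.14 without the array that stood apart. Among 8587 genes, the genes most like Slamf7 were Reln (r = 0.70), Stt3b (0.69), Ppp3cc (0.66) and Gpd2 (0.64), and those most like Sdc1 were Prkcsh (0.76), Ipo4 (0.76), Ndufs5 (0.75) and Chchd10 (0.75). Without the array that stood apart the leading genes were Ppp3cc (0.79), Fut8 (0.75), Srpr (0.72) and Reln (0.71) for Slamf7 and Eif4e2 (0.78), Rnf26 (0.77), Gmppa (0.76) and Pcyt2 (0.76) for Sdc1. Those most like Jchain were Tpt1, Rps3a1, Rpl10a and Rpl13a, with r from 0.97 to 0.98, and without the array that stood apart Ngly1 (0.68), Fut8 (0.67), Slc37a3 (0.65) and Tnfrsf17 (0.65). The points share normalization and RNA quality, and the averages hold unequal numbers of arrays.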

How the data were processed

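RNA of laser-captured cells and whole granuloma was measured on 82 mouse arrays. The authors' deposited values are log2 signals; RMA and Partek are named in the submitters' processing notes, with versions and settings not given in the sources used here. Depth is not defined for arrays, and their number limits the precision.

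Probe sets were named through GEO's platform annotation, updated by gene ID: of 22690, 20393 have 1 symbol, 691 several and 1606 none. Arrays of 1 specimen code and tissue were averaged. limma 3.58.1 (R 4.3.3) was fitted to 53 averages in 19 groups with specimen as a random block (correlation 0.103 on quantile-normalized and 0.112 on deposited values, 34 residual degrees of freedom). Probe sets above the array median in at least 3 averages (14286) were tested, with Benjamini-Hochberg adjustment and a threshold of 0.05. Tissue differences are means over the days that have both tissues, with equal weights. The script was tested on simulated data. Pairing comes from the shared specimen code: over 19 pairs, deviations from group means correlated from -0.16 to 0.65, with 12 over 0.1.

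Every member probe set is reported. Lists are described by counts and medians, naming their largest called changes and the direct partners of the members. The members and lists were chosen with earlier results of these data known. Alternatives covered scaling, RNA quality, the filter, blocks and left-out specimens. Leaving out the array that stood apart, and ranks within arrays, were added after seeing the data.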

Additional observations from a re-analysis of the deposited data

Results flagged for a closer look

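Slamf7 in captured cells of study 1 at day 17 has a sample far from the others: specimen 12 read 6.75 as deposited, while the other 3 read 7.68, 7.71 and 7.76. It was the only such case in 12 tests, over the member probe sets and the groups large enough to examine, and chance gives about 1 in 20. The granuloma of the same specimen read 6.65.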

How the results depend on the processing

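Slamf7 kept its direction and call in both studies under quantile and median scaling, no filter, the blocks, ranks and every left-out specimen. It also did so with the RNA quality covariate, but in study 2 that fit cannot separate RNA quality from tissue. On deposited values study 2 gave -0.31. On deposited values the Sdc1 probe sets gave -1.03 and -0.11 (1437279_x_at), -1.61 and -0.76 (1415943_at) and -1.49 and -0.15 (1415944_at) in studies 2 and 1, and Jchain -0.69 in study 2; the difference between studies was then -0.89 (1437279_x_at), -0.89 (Slamf7) and -0.76 (Jchain). Median centring gave 0.63 for 1437279_x_at in study 1, 0.27 and 0.39 for 1415943_at and 1415944_at in study 2, 1.19 and 1.00 for Jchain, and a study difference of 0.22 for 1415943_at. It called 6500 probe sets higher and 4062 lower in study 2 (4939 and 5127 with quantile scaling; 99 and 13653 as deposited), and in study 1 5323 and 3835 (4599 and 4183; 1229 and 8459 as deposited).

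With the 3′ and 5′ covariate, study 2 gave 0.028 for 1437279_x_at, -0.061 for 1415944_at and -1.03 for Jchain, study 1 gave 0.47 for 1415944_at and -0.42 for Jchain, and the study differences were -0.22 (1437279_x_at), -0.17 (Slamf7) and -0.55 (Jchain). The covariate fits kept the array that stood apart, and in study 2 they compare tissues that share no covariate values. In the paired fit with specimen as a fixed replicate block, 1415944_at in study 1 was 0.41, Slamf7 1.46 and 1.36, and Jchain 0.06 and 0.09; without the replicate block Slamf7 was 1.46 and 1.49. Section letters as separate specimens gave 0.37 for 1437279_x_at in study 1. Without day 104 it was 0.53, and the study differences were -0.018 (1437279_x_at) and 0.00347 (1415943_at). Without the array that stood apart it was 0.40, and Jchain in study 2 was 0.23. Ranks gave Jchain -0.56 percentile points in study 2, with the array that stood apart kept. That array lay at percentile 77.7 and the next lowest captured array at 99.1. The medians were 99.4 for captured and 99.3 for whole granuloma arrays.

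Leaving out 1 specimen gave 0.33 to 0.53 for 1437279_x_at in study 1, -0.22 to 0.022 for 1415943_at and -0.038 to 0.24 for Jchain in study 2; Jchain was called in 1 of 15 such fits, without day 49 specimen 2. Causes were not tested. Jchain lies near the top of the signal range and 1448158_at near the bottom, which limits both.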
